A study of Mus musculus with 7 samples.

Results

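The data are the expression profiles of bone marrow cells from 3 leukemias driven by ICN1, the activated intracellular form of NOTCH1, out of 7 leukemias measured in the series. The arrays were taken by the genotype label alone. The other 4, thymus cells of TEL-JAK2 leukemias, supplied no value to the levels and ranges below. They entered only 1 alternative setting, in which the mean over all 7 arrays chose the probe set of each gene. All 3 ICN1 samples came from C57Bl/6 mice at the terminal stage of disease, and large bones were crushed in cold buffer, filtered and lysed with no sorting step named. The labels do not give the age of the mice, the vector or promoter that drove ICN1, or whether leukemic cells had been passed through recipient mice. Replicate numbers 1, 2 and 3 follow the accessions and serve as names only. The sample titles carry different identifiers but do not state separate animals, so the spread may be in part technical. With 1 group of 3 arrays there is no test, and every gene is described by its value on each array, its standard deviation (SD, n = 3) and its range, the highest minus the lowest value on the log2 scale. Where 3 values are listed, they are those of replicates 1, 2 and 3 in that order. For each gene the brightest probe set with 1 symbol was kept, and 627 genes on the X and Y chromosomes were left out, which gave 17566 genes.

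NOTCH1 is a surface receptor whose inner part is released by cleavage when a neighbouring cell presents a ligand. The released part enters the nucleus, joins the DNA-binding protein RBPJ and switches on target genes, and in blood formation this commits progenitors to the T lineage. T cells normally mature in the thymus and not in the marrow. Crushed marrow also holds red cell precursors, granulocytes, macrophages, megakaryocytes, B-lineage and plasma cells and stroma, so the RNA of an unsorted sample is a sum over leukemic and other cells. In such a sum, fewer cells of a type and less RNA per cell cannot be told apart.

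The 3 arrays had similar overall distributions, with medians of 5.50, 5.49 and 5.44 log2 in replicates 1, 2 and 3. Across genes, which are not independent replicates, Pearson's r was 0.982 between replicates 1 and 2, 0.973 between 1 and 3 and 0.976 between 2 and 3. The arrays differed in sex-linked transcripts. Xist, the RNA of the inactive X chromosome, read 11.51, 11.78 and 12.09 in replicates 1, 2 and 3. The Y-linked Eif2s3y read 8.93, 9.41 and 3.25, Kdm5d 7.73, 7.99 and 2.64, and Uty 6.53, 6.23 and 3.13. Replicates 1 and 2 thus each held both kinds of transcript, and leaving both out leaves 1 array and no spread. Levels of different genes cannot be ranked as mRNA amounts, since each probe set has its own affinity, so "brightest" below refers to array signal.

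Some T-lineage genes were bright on every array. Cd3d, Thy1 and Ptprc below were named as the brightest of their list, and Bcl11b for its small range. Their values therefore are no check of the label of a T cell leukemia. Cd3d, a chain of the CD3 signalling complex, read 13.35, 13.18 and 13.08 (mean ± SD 13.20 ± 0.14, n = 3), a range of 0.27. Thy1, a surface protein of mouse T cells, read 12.97, 13.18 and 12.34. Ptprc, the pan-leukocyte phosphatase CD45, read 13.43, 13.58 and 13.31. Bcl11b, a transcription factor needed for T cell commitment, read 10.91, 11.22 and 11.05. All 4 genes thus read above 10 on every array, each with a range under 1 log2, and Ptprc is not limited to T cells. Cd7, from the same list as Cd3d, was dimmer at 6.37, 5.65 and 7.27.

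The 30 brightest genes, with means of 13.85 to 14.42 log2, included 22 cytosolic ribosomal proteins. The others included proteins of translation, the cytoskeleton and growth: Tpt1 (translationally controlled tumour protein), Eef1a1 (the elongation factor that brings tRNA to the ribosome), Pabpc1 (which binds poly(A) tails), Actb (beta-actin) and Pcna (the sliding clamp of DNA replication). Cd24a, a surface protein of immature lymphocytes and red cell precursors, was also among them at 13.93, 14.01 and 13.83. Their median range was 0.09, and 27 of the 30 had a range under 0.2. The 3 others were Actb, Tmsb10 and Gpx1. Tmsb10, a small actin-binding protein, read 14.43, 13.83 and 14.53, lower in replicate 2. Gpx1, a glutathione peroxidase abundant in red cells, read 13.93, 14.27 and 13.76, with replicate 2 highest.

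Bright genes with the smallest ranges came from the same housekeeping machinery. Rpsa, a ribosomal protein, read 14.16, 14.14 and 14.15, and Cox4i1, a subunit of cytochrome c oxidase, 13.18, 13.18 and 13.15. Ran, the small GTPase of nuclear transport, read 13.37, 13.33 and 13.36. Lig1, the ligase that joins replication fragments, read 10.98, 10.95 and 10.98. Others among the 20 with a mean of at least 10 and the smallest ranges were Psmb2 (a proteasome subunit), Snrpe (a spliceosome protein), Ssr3 (a part of the translocon in the endoplasmic reticulum), Mrpl35 (a mitochondrial ribosomal protein) and Atp6v1e1 (a proton pump subunit). In all, 143 genes with a mean of at least 10 had a range under 0.1.

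Over all 17566 genes the median range was 0.34 and the median SD 0.18 (n = 3). A range of at least 1 log2, which is at least 2-fold between the highest and the lowest array, was found in 1719 genes, or 9.79%. This share is the background against which the counts in the gene lists are read. It depended on brightness: it was 2.48% among the 5878 genes with a mean under 5, 17.2% from 5 to 7, 14.6% from 7 to 9, 9.44% from 9 to 11, 6.12% from 11 to 13 and 1.75% of the 114 genes above. Replicate 3 was at least 1 log2 below both others in 239 genes (1.36%) and above both in 172 (0.979%). Replicate 1 stood that far above both others in 252 genes (1.43%) and below them in 60 (0.342%). Replicate 2 stood above in 124 genes (0.706%) and below in 67 (0.381%). All 3 arrays lay at least 1 log2 apart in 102 genes (0.581%). Between replicates 1 and 2 alone, 716 genes were at least 1 log2 apart (4.08%), between 2 and 3, 1035 (5.89%), and between 1 and 3, 1086 (6.18%).

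**Figure D1:**
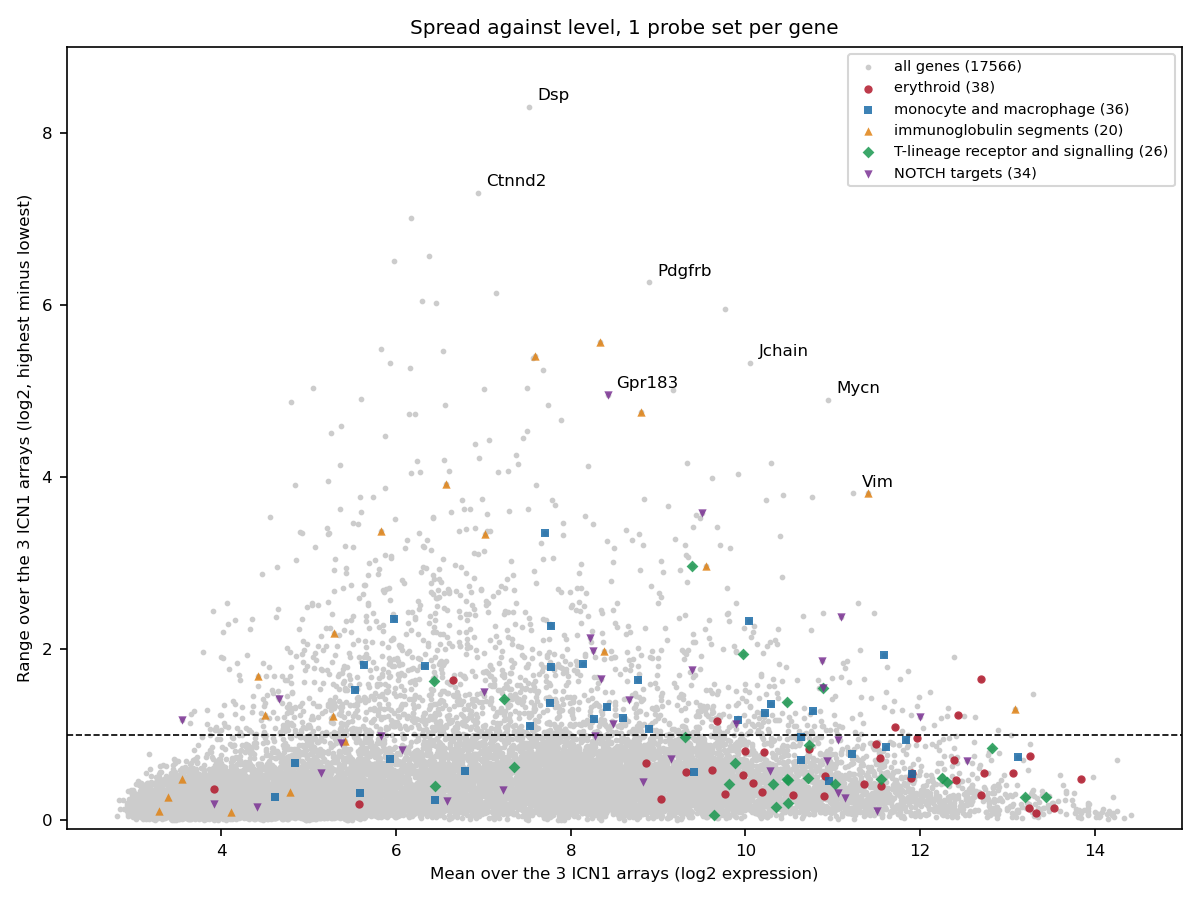
Range over the 3 ICN1 arrays (log2, vertical axis) against the mean level (log2, horizontal axis) for 17566 genes, 1 point per gene, grey unless the gene is in the erythroid, macrophage, immunoglobulin, T-lineage receptor or NOTCH target list, which the coloured shapes mark. The dashed line at 1 log2 leaves 1719 genes above it, and the ranges narrow among the brightest genes.

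A second probe set of the same gene, which shares the arrays but not all the probes, gives a check on single probe sets. Among genes whose brightest and next probe set both had a mean of at least 7 and whose range was at least 1, the second probe set had the same highest and the same lowest array in 244 of 298 genes (81.9%). Over all 3218 genes with such a pair, whatever their range, the share was 46.0%. In 195 genes both probe sets had a range of at least 1 log2.

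The genes with the largest ranges were mostly not members of the cell-type lists, and 8 of the top 30 were. Dsp, desmoplakin of the desmosomal junction, had the largest at 3.62, 7.01 and 11.93, a span of 8.31 log2 or 317-fold, and its other probe sets read 3.36, 6.79 and 11.94 and 3.35, 3.80 and 8.84. Replicate 3 was the highest array in all of them. Ctnnd2, a catenin of cell junctions better known from neurons, read 4.03, 5.43 and 11.34. Sox11, a developmental transcription factor, read 3.83, 3.80 and 10.30. These were near the bottom of the scale in at least 1 array, where the method compresses folds, so the fold itself is uncertain.

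Mycn, the MYC-family oncogene, read 9.13, 9.70 and 14.02 (mean ± SD 10.95 ± 2.68, n = 3), and replicate 3 was 29.8-fold above the lowest array. Its 2 other probe sets read 5.09, 4.97 and 5.15 and 4.97, 4.88 and 4.95, so the difference rests on 1 probe set. Gpr183, a receptor that guides lymphocyte migration, read 7.75, 6.29 and 11.25 and Bst1, a surface enzyme that makes cyclic ADP-ribose, 4.84, 8.11 and 10.08. Cubn, a receptor for vitamin uptake in epithelia, read 4.03, 3.98 and 9.48. In these genes replicate 3 was again the highest array.

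Other genes were high in replicate 1. Pdgfrb, a growth factor receptor of pericytes and other stromal cells, read 11.74, 9.47 and 5.47 (mean ± SD 8.90 ± 3.17, n = 3), and its other probe set followed the same order at 8.80, 6.97 and 5.74. Wls, which carries WNT proteins to the cell surface, read 9.86, 7.87 and 3.72. Lmcd1, a LIM-domain cofactor, read 10.42, 4.39 and 4.56, and Khdc1a 10.57, 4.57 and 4.01. Slpi, a secreted inhibitor of neutrophil proteases, read 12.02, 8.46 and 7.01. Cpa3, the carboxypeptidase of mast cells and some progenitors, read 9.42, 4.28 and 4.10. Replicates 2 and 3 differed by less than 1 log2 for Lmcd1, Khdc1a and Cpa3, so replicate 1 stood alone in these.

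Fewer genes singled out replicate 2. Gdpd3, a phosphodiesterase of lysophospholipids, read 5.90, 11.09 and 5.71 and was high in replicate 2 alone. Etv5, an ETS transcription factor, read 9.12, 4.17 and 9.20 and was the 1 gene of the 30 low in replicate 2 alone. Cd163l1, a scavenger receptor family member found on gamma delta T cells, read 10.59, 6.38 and 12.33. Of the 30, all 3 arrays lay at least 1 log2 apart in 14, replicate 1 was high in 6, replicate 3 high in 6, replicate 2 high in 3 and low in 1. Of the 100 largest ranges, all 3 arrays were apart in 41. Replicate 1 was high in 20 of the 100, replicate 3 high in 15 and low in 13.

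**Figure D2:**
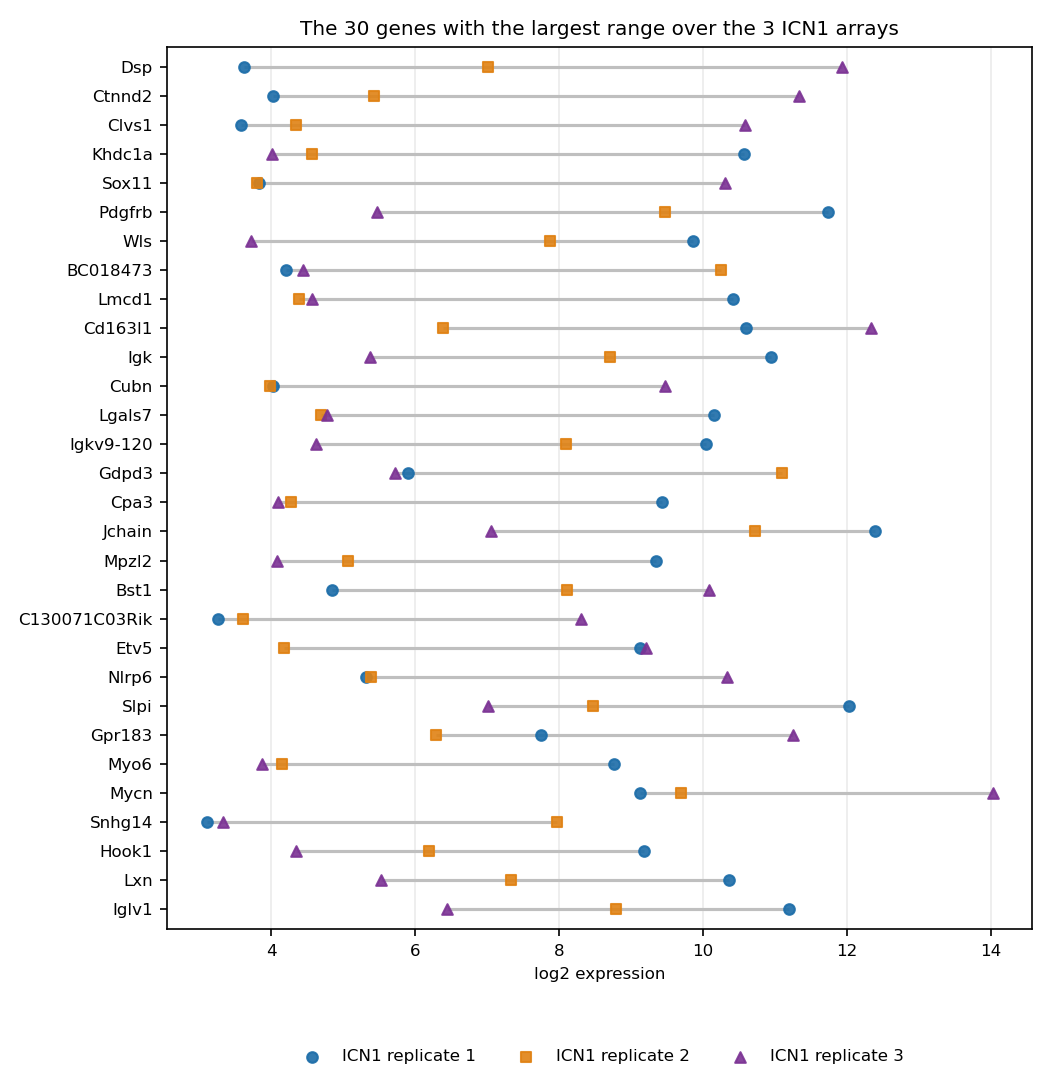
Log2 values of the 30 genes with the largest range, 1 row per gene and 1 point per ICN1 array. Dsp spans 3.62 to 11.93, and the array with the highest value differs from gene to gene.

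T-lineage receptor and signalling genes varied less than genes of T cell stage, though more often than all genes. In the 26 receptor and signalling genes the mean levels were 10.23, 10.16 and 10.41 in replicates 1, 2 and 3, the median range was 0.49, and 6 of 26 had a range of at least 1 log2, against 9.79% of all genes. Lat, the adaptor that assembles signalling proteins below the receptor, read 12.38, 12.50 and 12.05. Plcg1, the phospholipase it recruits, read 9.65, 9.60 and 9.66, and Themis, a regulator of thymic selection signals, 10.29, 10.46 and 10.30. The 6 genes of larger range included Ptcra, the pre-T cell receptor alpha chain, at 9.91, 11.45 and 11.31. Trat1, an adaptor of the receptor complex, read 7.89, 9.43 and 10.86, and Rasgrp1, the exchange factor that activates Ras, 10.93, 8.99 and 10.01. Ptcra was thus low in replicate 1 while Rasgrp1 was highest there.

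Genes of T cell stage varied more, with a median range of 1.74. Of 21, 13 had a range of at least 1 log2 (61.9%), against 9.79% of all genes. Cd8a, a chain of the CD8 co-receptor, read 10.77, 12.31 and 12.51 and its partner Cd8b1 10.46, 12.16 and 12.25, so replicate 1 was at least 1 log2 below both others in both chains. The other co-receptor gene, Cd4, had a mean ± SD of 9.66 ± 0.55 (n = 3) and was lowest in replicate 1, with a range of 0.98. Il2ra, the interleukin 2 receptor alpha chain of early thymocytes and activated T cells, read 10.04, 10.70 and 11.90. Dntt, the polymerase that adds bases at antigen receptor junctions, read 11.40, 10.98 and 7.37 (mean ± SD 9.92 ± 2.21, n = 3) and was at least 3 log2 lower in replicate 3. Rag1, a subunit of the recombinase, read 10.93, 11.76 and 11.05, and Rag2, the other subunit, 5.59, 7.65 and 5.84, highest in replicate 2. Hence Dntt and the recombinase genes did not share an order.

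Single genes of cell migration and surface markers differed in which array stood apart. S1pr1, the receptor for exit from lymphoid organs, read 6.83, 6.72 and 10.18. Itga4, the alpha chain of the integrin VLA-4, read 10.50, 10.42 and 12.95. Ccr9, a chemokine receptor of thymocytes and gut-homing cells, ran the other way at 9.19, 8.75 and 5.52. Ly6d, a surface marker of early lymphoid cells, read 7.32, 10.83 and 10.28, with replicate 1 lower. The chemokine receptor Cxcr4, which holds cells in marrow, varied less at 11.15, 11.52 and 11.94.

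T-lineage transcription factors had a median range of 1.13. Of 23, 12 had a range of at least 1 log2 (52.2%), against 9.79% of all genes. The steadier ones were Bcl11b, given above, Ikzf1 (Ikaros) at 12.69, 12.41 and 12.53, Tcf12 (the E protein HEB) at 11.89, 11.86 and 12.08 and Ets1 at 12.44, 12.27 and 11.87. Gata3, the zinc finger factor of T cell commitment, read 9.41, 7.77 and 7.87, and Ikzf2 (Helios) 12.27, 10.49 and 10.68, both at least 1 log2 higher in replicate 1. Id3, an inhibitor of E proteins, read 10.23, 8.06 and 9.89 and Lef1, a WNT effector, 11.99, 10.72 and 12.05, both lowest in replicate 2. Klf2, which drives expression of S1pr1, read 9.16, 7.62 and 10.27 and Runx3, a factor of CD8 cells, 7.86, 7.34 and 9.46, both highest in replicate 3. The mean level of this list was 9.54, 8.85 and 9.35, and its highest array changed from replicate 1 to replicate 3 when arrays were set level on CD3 genes.

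Of 9 T cell receptor segment genes, 4 had a range of at least 1 log2 (44.4%), against 9.79% of all genes. Without probe sets marked as cross-hybridizing it was 1 gene of 7. Trbv1 read 13.75, 13.85 and 13.61, and Trav9d-3 11.95, 10.88 and 12.28. Trgv1, a gamma segment, read 10.73, 12.18 and 9.77, and Trgv4 8.76, 7.57 and 8.72. Trbv13-2 read 10.41, 8.88 and 9.35. Segment families are alike in sequence, so a probe set named for 1 segment may read several.

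NOTCH targets are shown first by sequence. RBPJ, the DNA-binding partner of NOTCH1, prefers sites with the core TGGGAA, so 3 target promoters are printed, each 250 bases before the start of the gene from RefSeq (GRCm38.p6), 5′ to 3′ on the gene's strand, with TGGGAA or its reverse complement TTCCCA in capitals. They were chosen from targets that had a small range but were dim (Hes5), that were low in replicate 1 (Ptcra) and that were high in replicate 3 (Nrarp).
Hes5 (chr4:154960673-154960922, plus strand): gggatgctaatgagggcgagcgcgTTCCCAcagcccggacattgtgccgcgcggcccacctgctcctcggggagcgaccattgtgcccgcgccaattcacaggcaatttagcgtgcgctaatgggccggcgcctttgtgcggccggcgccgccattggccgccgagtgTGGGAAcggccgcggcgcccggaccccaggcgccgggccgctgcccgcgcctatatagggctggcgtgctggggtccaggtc
Ptcra (chr17:46763713-46763962, minus strand): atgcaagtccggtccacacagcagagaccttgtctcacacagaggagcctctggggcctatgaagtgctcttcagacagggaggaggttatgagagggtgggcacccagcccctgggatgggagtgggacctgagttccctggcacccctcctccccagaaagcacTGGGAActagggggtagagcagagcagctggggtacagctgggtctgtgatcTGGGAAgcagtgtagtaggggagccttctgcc
Nrarp (chr2:25180508-25180757, plus strand): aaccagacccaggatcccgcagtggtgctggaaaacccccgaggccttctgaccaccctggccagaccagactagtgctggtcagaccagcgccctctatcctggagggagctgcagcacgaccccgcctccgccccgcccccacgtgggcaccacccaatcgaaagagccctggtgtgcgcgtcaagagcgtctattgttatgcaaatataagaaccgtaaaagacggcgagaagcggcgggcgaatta
The core occurs 2 times in the Hes5 window, starting 226 and 82 bases before the gene start, and 2 times in the Ptcra window, at 84 and 32 bases. It does not occur in these 250 bases of Nrarp. On either strand it was found in 7094 of 32851 promoters of the same length (21.6%) and in 12 of 38 promoters of the target list (31.6%). The erythroid list held it about as often, in 10 of 33 promoters (30.3%). A match is a description of letters only.

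The 34 measured NOTCH targets had mean levels of 8.52, 8.35 and 8.60 and a median range of 0.99. Of these, 16 had a range of at least 1 log2, against 9.79% of all genes. The 16 include Notch1, which a probe set cannot separate from the ICN1 transgene where they share sequence. Notch1, Notch3, Lfng and Mfng are also counted among the pathway components below. Replicate 3 was the highest and replicate 2 the lowest array by mean level under every scaling tried. Counts of single genes did not follow this order. Replicate 1 was highest in 15 of 34, against 30.5% of all genes, and replicate 3 in 12, against 40.7%. Replicate 2 was lowest in 14, against 36.7% of all genes, and replicates 1 and 3 in 10 each. Dtx1, a ubiquitin ligase of the pathway, read 12.18, 12.57 and 12.87, bright on all arrays. Nrarp, a small protein that limits NOTCH signalling, read 10.05, 10.83 and 12.41 (mean ± SD 11.10 ± 1.20, n = 3), and its second probe set read 8.86, 9.35 and 11.30. Heyl, a basic helix-loop-helix repressor, read 7.98, 8.64 and 9.38 and Il2ra, given above, followed the same order, with replicate 1 lowest and replicate 3 highest.

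Other targets ran in the opposite order. Hivep3, a large zinc finger protein, read 11.34, 9.40 and 7.76, while its other 4 probe sets read between 4.87 and 5.87 and had ranges of at most 0.57. One of these kept the order, at 5.87, 5.54 and 5.30. Igf1r, the receptor for insulin-like growth factor, read 9.12, 8.49 and 7.15. Il7r, the interleukin 7 receptor, read 10.08, 9.74 and 8.33. Thus Nrarp and Heyl were highest, and Igf1r and Il7r lowest, in the same array.

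Several classical targets had ranges under 1 log2. Hes1, the repressor most often used as a NOTCH readout, read 8.39, 7.73 and 8.71, a range of 0.99. Hes5, a close relative, read 6.69, 6.46 and 6.61, and its other probe set 6.02, 6.07 and 6.23. Both were dim, with means under 7, and the method compresses folds of dim probe sets, so their small ranges say little. Myc, the growth regulator, read 10.86, 10.63 and 11.32. Slc29a1, a nucleoside transporter, had one of the smallest ranges in the list at 11.57, 11.46 and 11.50, and the cyclin Ccnd3 read 11.21, 10.99 and 11.25. Hes1 lay just under 1 log2, and Hes5 and Myc had smaller ranges.

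Of the 30 pathway components, 3 had a range of at least 1 log2, a share near the 9.79% of all genes: Notch1, Notch3 and Fbxw7. Notch1, which a probe set cannot separate from the ICN1 transgene where the 2 share sequence, read 11.99, 12.60 and 11.40 (mean ± SD 12.00 ± 0.60, n = 3), and its other probe set 8.50, 9.45 and 8.57. Notch3, a related receptor and itself a target, read 9.17, 10.29 and 10.23. Fbxw7, the ubiquitin ligase subunit that marks the intracellular domain for destruction, read 7.97, 8.33 and 9.06. The rest were flatter: Maml1, the coactivator, read 8.71, 8.74 and 8.89 and Adam10, the protease of the first cleavage, 11.74, 11.95 and 11.50. Psenen, a subunit of the gamma-secretase that makes the final cleavage, read 11.28, 11.43 and 11.26. The median range of the list was 0.45.

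**Figure D3:**
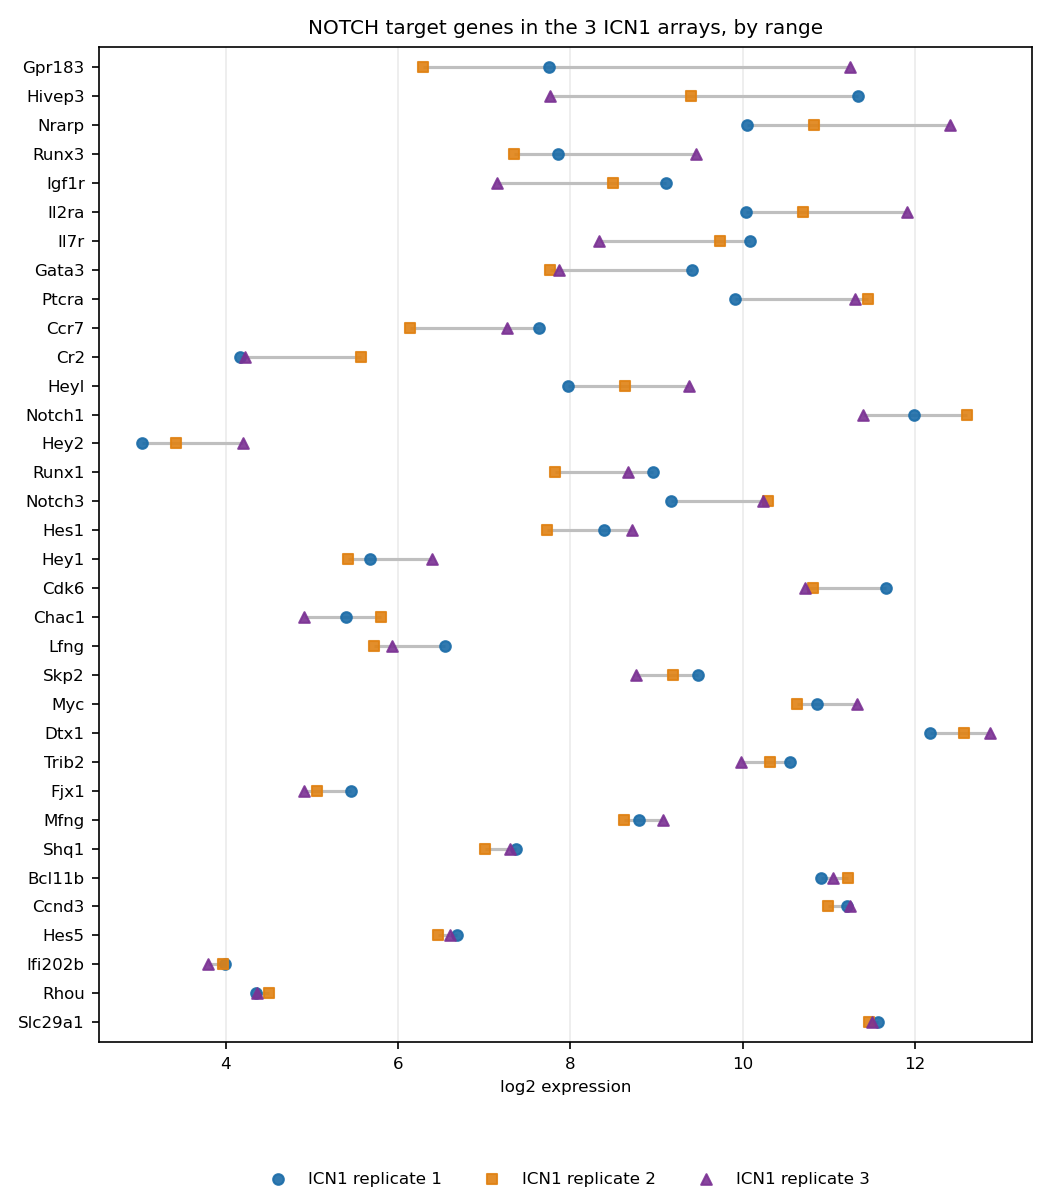
Log2 values of the 34 NOTCH targets on the 3 ICN1 arrays, 1 row per gene and 1 point per array. Dtx1 lies above 12 on every array, Nrarp runs from 10.05 to 12.41, and Hivep3 runs in the opposite order from 11.34 to 7.76.

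Erythroid genes were bright on all arrays, and their spread was somewhat above that of all genes. The 38 genes had mean levels of 11.03, 11.08 and 10.66 and a median range of 0.54. Of these, 5 of 38 (13.2%) had a range of at least 1 log2. Over all genes the median range was 0.34 and the share 9.79%. Among genes of similar brightness they were 0.44 and 9.44% for means from 9 to 11, and 0.32 and 6.12% from 11 to 13. Slc4a1, which exchanges chloride for bicarbonate across the red cell membrane, read 13.64, 14.13 and 13.75 (mean ± SD 13.84 ± 0.26, n = 3), and Tfrc, the transferrin receptor, which dividing cells of all kinds also use, 13.16, 13.30 and 13.28. Car2, a carbonic anhydrase, read 13.55, 13.61 and 13.46 and Prdx2, an antioxidant enzyme of red cells, 13.36, 13.36 and 13.28. The 5 genes of larger range were Bpgm, Hba-a2, Xpo7, Tmod1 and Rhd. Bpgm, which makes 2,3-bisphosphoglycerate, read 12.77, 13.49 and 11.85, and Xpo7, an exportin of maturing red cells, 12.52, 13.01 and 11.78. Hba-a2, an alpha-globin gene, read 7.10, 7.26 and 5.62. Tmod1, which caps actin filaments in the membrane skeleton, read 9.30, 10.45 and 9.29 and was higher in replicate 2.

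Replicate 3 was the lowest array in 31 of the 38 erythroid genes, against 32.0% of all genes. Leaving out replicate 1, 2 or 3 gave ranges of the mean level of 0.43, 0.37 and 0.056, against 0.43 with all arrays. With the arrays set level on the CD3 genes it was 0.14, with replicate 3 lowest in 17 genes and 3 of 38 at a range of at least 1 log2.

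The erythroid factor GATA1 binds sites with the letters GATA, and AGATAA with its reverse complement TTATCT was searched as 1 such form. The promoters of Kel, a blood group membrane protein, and Rhd, the Rh blood group protein, are shown as erythroid examples that hold it, from the same RefSeq table and in the same form, with the match in capitals.
Kel (chr6:41704326-41704575, minus strand): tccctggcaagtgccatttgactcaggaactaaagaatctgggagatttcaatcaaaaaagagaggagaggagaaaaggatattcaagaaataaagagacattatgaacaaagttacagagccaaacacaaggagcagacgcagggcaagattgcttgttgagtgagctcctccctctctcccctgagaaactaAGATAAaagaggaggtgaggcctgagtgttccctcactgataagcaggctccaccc
Rhd (chr4:134864286-134864535, plus strand): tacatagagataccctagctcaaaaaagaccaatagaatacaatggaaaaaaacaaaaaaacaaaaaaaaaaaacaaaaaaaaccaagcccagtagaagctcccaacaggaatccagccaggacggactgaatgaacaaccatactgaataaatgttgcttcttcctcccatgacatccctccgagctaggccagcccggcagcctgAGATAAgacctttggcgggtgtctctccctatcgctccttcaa
Each window holds 1 match, 56 bases before the start of Kel and 43 before that of Rhd. Over all promoters 3281 of 32851 held it (9.99%), against 7 of 33 promoters of the erythroid list (21.2%) and 1 of 38 of the NOTCH targets (2.63%). Kel read 10.93, 11.02 and 10.74 and Rhd 12.01, 12.11 and 11.02, with replicate 3 at least 1 log2 below replicate 2 for Rhd.

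Monocyte and macrophage genes varied widely and were mostly lowest in replicate 3. The 36 genes had mean levels of 9.09, 8.81 and 8.07, a median range of 1.17, and 21 of 36 had a range of at least 1 log2 against 9.79% of all genes. Csf1r, the receptor for macrophage growth factor, read 12.33, 12.03 and 10.40 (mean ± SD 11.59 ± 1.04, n = 3). Fcgr4, an Fc receptor, read 9.03, 8.40 and 5.68 and Adgre1, which encodes an adhesion receptor of mature macrophages, 8.68, 8.22 and 6.41. C1qa, a chain of complement C1q made by macrophages, read 10.82, 10.62 and 9.45. Mrc1, the mannose receptor, read 10.49, 10.99 and 8.66. In each of these 5 genes replicates 1 and 2 lay within 1 log2 of each other and replicate 3 was at least 1 log2 below both.

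Replicate 3 was the lowest array in 30 of 36 macrophage genes, against 32.0% of all genes. The range of the mean level, 1.02 over all arrays, was 0.74 without replicate 1, 1.02 without 2 and 0.28 without 3. Setting the arrays level on the CD3 genes left 14 genes with a range of at least 1 and 27 lowest in replicate 3. Lyz2, the lysozyme of macrophages and granulocytes, did not follow at 10.72, 10.25 and 10.96, nor did Lyz1 at 12.08, 11.55 and 12.10. The same array was lowest for stromal genes and for MHC class II genes, described below, and the part these cells have in each other's values was not tested.

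Neutrophil genes of late granules were highest in replicate 2 by mean level. The 24 genes had mean levels of 6.15, 6.70 and 5.47 and a median range of 1.03. Of these, 12 had a range of at least 1 log2 (50%), against 9.79% of all genes. S100a9, a calcium-binding protein of neutrophils, read 9.68, 11.04 and 8.64 (mean ± SD 9.79 ± 1.20, n = 3) and its partner S100a8 9.48, 10.81 and 8.48. Ngp, a granule protein, read 9.23, 10.88 and 7.22, and Camp, an antimicrobial peptide precursor, 7.48, 9.09 and 6.18. Lcn2, an iron-carrier-binding protein of specific granules, read 6.21, 8.13 and 5.43 and Chil3, a chitinase-like protein, 7.50, 9.29 and 6.25. All 6 had the order replicate 2, then 1, then 3. Over the list, replicate 2 was the highest array in 15 of 24 genes, against 28.8% of all genes, and replicate 1 in 8. Anxa1 at 8.12, 8.01 and 6.19 and Lrg1 at 7.56, 7.48 and 6.20 were highest in replicate 1. Among the 24 there were dim genes, and the members with a mean of at least 7 had a median range of 2.40. Leaving out replicate 1, 2 or 3 gave ranges of the mean level of 1.22, 0.68 and 0.55, against 1.22 with all arrays.

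Genes of primary granules, made earlier in neutrophil development, were mostly dim, and 3 of 11 had a mean of at least 7. Their mean levels were 7.07, 7.03 and 6.85 over 11 genes. The median range was 0.58, against 0.34 over all genes. Nkg7 alone had a range of at least 1 log2, at 7.06, 5.84 and 6.03. This is 9.09% of the list, near the 9.79% of all genes. Mpo, the myeloperoxidase of promyelocytes, read 5.08, 5.06 and 4.40. Srgn, a proteoglycan of granules that lymphocytes also make, read 12.88, 13.13 and 13.16. Gfi1, a repressor needed for neutrophils and also used in T cells, read 8.54, 9.08 and 9.46. Nkg7 is also a gene of cytotoxic lymphocytes.

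Eosinophil, basophil and mast cell genes were dim, with a mean level of 5.18, 4.49 and 4.15 over 14 genes. The 4 with a range of at least 1 log2 (28.6%, against 9.79% of all genes) were Cpa3, given above, Prg2, Ccr3 and Epx. Prg2, the major basic protein of eosinophils, read 8.26, 7.30 and 4.86, lowest in replicate 3. Ccr3, the eotaxin receptor, read 5.70, 5.51 and 3.61. Epx, the eosinophil peroxidase, read 4.81, 4.37 and 3.75. Hdc, the enzyme that makes histamine, varied little at 5.60, 5.27 and 5.20.

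Megakaryocyte and platelet genes showed replicate 2 highest. The 18 genes had mean levels of 6.44, 7.39 and 5.76, a median range of 1.60, and 13 of 18 had a range of at least 1 log2, against 9.79% of all genes. Ppbp, a platelet chemokine, read 9.18, 11.22 and 7.80 (mean ± SD 9.40 ± 1.72, n = 3) and Pf4, platelet factor 4, 7.55, 9.54 and 6.88. Gp1bb, a chain of the von Willebrand factor receptor, read 5.78, 7.93 and 4.67. Thbs1, thrombospondin of platelet granules, read 6.28, 8.09 and 5.44. Itga2b, the platelet integrin chain, varied less at 7.58, 8.33 and 7.32. Leaving out replicate 1, 2 or 3 gave ranges of the mean level of 1.62, 0.68 and 0.95, against 1.62 with all arrays.

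MHC class II and dendritic cell genes separated replicate 3 from the other arrays. H2-Aa, the class II alpha chain, read 11.65, 12.20 and 8.43 (mean ± SD 10.76 ± 2.04, n = 3), H2-Ab1 10.69, 10.97 and 7.80 and Cd74, the invariant chain, 11.42, 11.54 and 8.23. These genes of antigen presentation are shared by B cells, macrophages and dendritic cells. Ciita, the factor that switches them on, was dim at 5.13, 5.53 and 4.49. The 17 genes of the list had mean levels of 7.50, 7.54 and 6.14. Of these, 9 had a range of at least 1 log2 (52.9%), against 9.79% of all genes. Without probe sets marked as cross-hybridizing it was 5 of 13. The 9 include Ccr9, which is also in the T cell stage list and was given above as a receptor of thymocytes. Leaving out replicate 1, 2 or 3 gave ranges of the mean level of 1.40, 1.36 and 0.036, against 1.40 with all arrays.

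B-lineage genes were mostly dim and, by mean level, highest in replicate 2. The 26 genes had mean levels of 6.53, 7.41 and 6.44, a median range of 1.33, and 18 of 26 had a range of at least 1 log2, against 9.79% of all genes. Cd79a and Cd79b, the signalling chains of the B cell receptor, read 6.63, 8.07 and 5.85 and 6.78, 8.36 and 5.54 (mean ± SD 6.89 ± 1.42, n = 3). Ms4a1, which encodes CD20, read 6.51, 8.14 and 4.62. Fcmr, the Fc receptor for IgM, read 6.00, 8.65 and 5.77. Replicate 2 was the highest array in 20 of 26 genes, against 28.8% of all genes. Among the 9 members with a mean of at least 7 it was highest in 5 and lowest in 4. Mzb1 at 9.72, 8.34 and 9.79, Pou2af1 at 8.96, 8.59 and 8.80 and Tnfrsf13c at 6.81, 6.70 and 7.96 were lowest there. The lowest array by mean level was replicate 3, and it became replicate 1 when arrays were set level on the CD3 genes or dim genes were left out. The range of the mean level, 0.98 over all arrays, was 0.98 without replicate 1, 0.10 without 2 and 0.88 without 3.

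Genes of the earliest B-lineage stages are partly shared with thymocytes. Of 16, 8 had a range of at least 1 log2, against 9.79% of all genes, among them Dntt and Rag2, given above. Ebf1, the factor that commits B cell progenitors, was dim at 3.75, 5.27 and 3.59, highest in replicate 2. Sox4, a factor of both lymphoid lineages, read 12.53, 12.30 and 12.97. Cd93, a receptor of progenitor B cells and other early cells, read 9.24, 6.60 and 5.02, highest in replicate 1. Akap12, a scaffold of protein kinase A, read 8.12, 10.83 and 10.42, lowest in replicate 1.

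Plasma cell and immunoglobulin genes were highest in replicate 1, not 2. Jchain, which joins IgM and IgA units, read 12.39, 10.73 and 7.06 (mean ± SD 10.06 ± 2.73, n = 3), and Igha, the IgA heavy chain, 10.71, 10.20 and 7.75. Igk, the kappa light chain, read 10.94, 8.70 and 5.37 and Iglv1, a lambda segment, 11.20, 8.78 and 6.44. Of 20 immunoglobulin segment genes, 14 had a range of at least 1 log2 (70%), against 9.79% of all genes. In the same list 17 were highest in replicate 1, against 30.5% of all genes, and 16 lowest in replicate 3, against 32.0%. Without probe sets marked as cross-hybridizing, 9 of 17 had such a range. Their mean levels were 7.43, 6.76 and 5.40, and those of the 11 plasma cell genes 9.09, 8.33 and 7.69. For the segments the range of the mean level was 1.35, 2.02 and 0.67 without replicates 1, 2 and 3, and for the plasma cell genes 0.64, 1.40 and 0.76. Xbp1, the factor of secretory cells, read 11.45, 10.26 and 10.32. Irf4, which T cells also use, had another order at 8.90, 7.41 and 9.59.

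The heavy chain gene Ighm shows how far a probe set decides a value. Its brightest probe set read 13.21, 13.67 and 12.38, with replicate 2 highest. Another probe set named Ighm read 13.68, 8.38 and 7.71, and one more read 13.08, 7.01 and 5.10, both with replicate 1 far above the others. The probe sets thus differ in order, and variable segments joined to the gene were not separated here.

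Stromal, bone and endothelial genes were lower in replicate 3. The 26 genes had mean levels of 6.79, 6.70 and 5.94. Of these, 14 had a range of at least 1 log2 (53.8%), against 9.79% of all genes. With the probe sets of each gene averaged, 5 of 26 did, while replicate 3 remained the lowest array by mean level. Pdgfrb, given above, had the largest range. Col1a2, a chain of type I collagen, read 9.87, 8.37 and 7.34. Sparc, a matrix protein of bone, read 9.36, 9.57 and 8.03 and Cxcl12, the chemokine that retains blood progenitors, 6.77, 7.14 and 5.35. Acp5, the acid phosphatase of osteoclasts, varied less at 10.76, 11.39 and 10.61. The range of the mean level, 0.86 over all arrays, was 0.77 without replicate 1, 0.86 without 2 and 0.089 without 3. In the 13 fat and muscle genes, 2 had a range of at least 1 log2 (15.4%). The share was 9.79% of all genes and 17.2% of those with a mean from 5 to 7. The 2 were Lpl (lipoprotein lipase) at 8.86, 7.38 and 6.96 and Fabp4 (a fatty acid carrier of fat cells) at 6.82, 6.61 and 5.58.

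Cytotoxic and natural killer genes had a range of at least 1 log2 in 4 of 22, or in 2 of 19 without probe sets marked as cross-hybridizing. The first share is 18.2%, against 9.79% of all genes. The list had a mean level of 5.19, and 17.2% of all genes with a mean from 5 to 7 had such a range. Gzma, a granule protease, was bright in all arrays at 13.04, 11.78 and 11.54, highest in replicate 1. Il2rb, the interleukin 2 receptor beta chain, read 8.13, 5.37 and 5.68, and Prf1, perforin, 5.06, 5.56 and 6.12. Ccl5, a chemokine of activated T cells, read 7.41, 6.41 and 6.50. Replicate 1 was the highest array for Gzma, Il2rb and Ccl5.

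**Figure D4:**
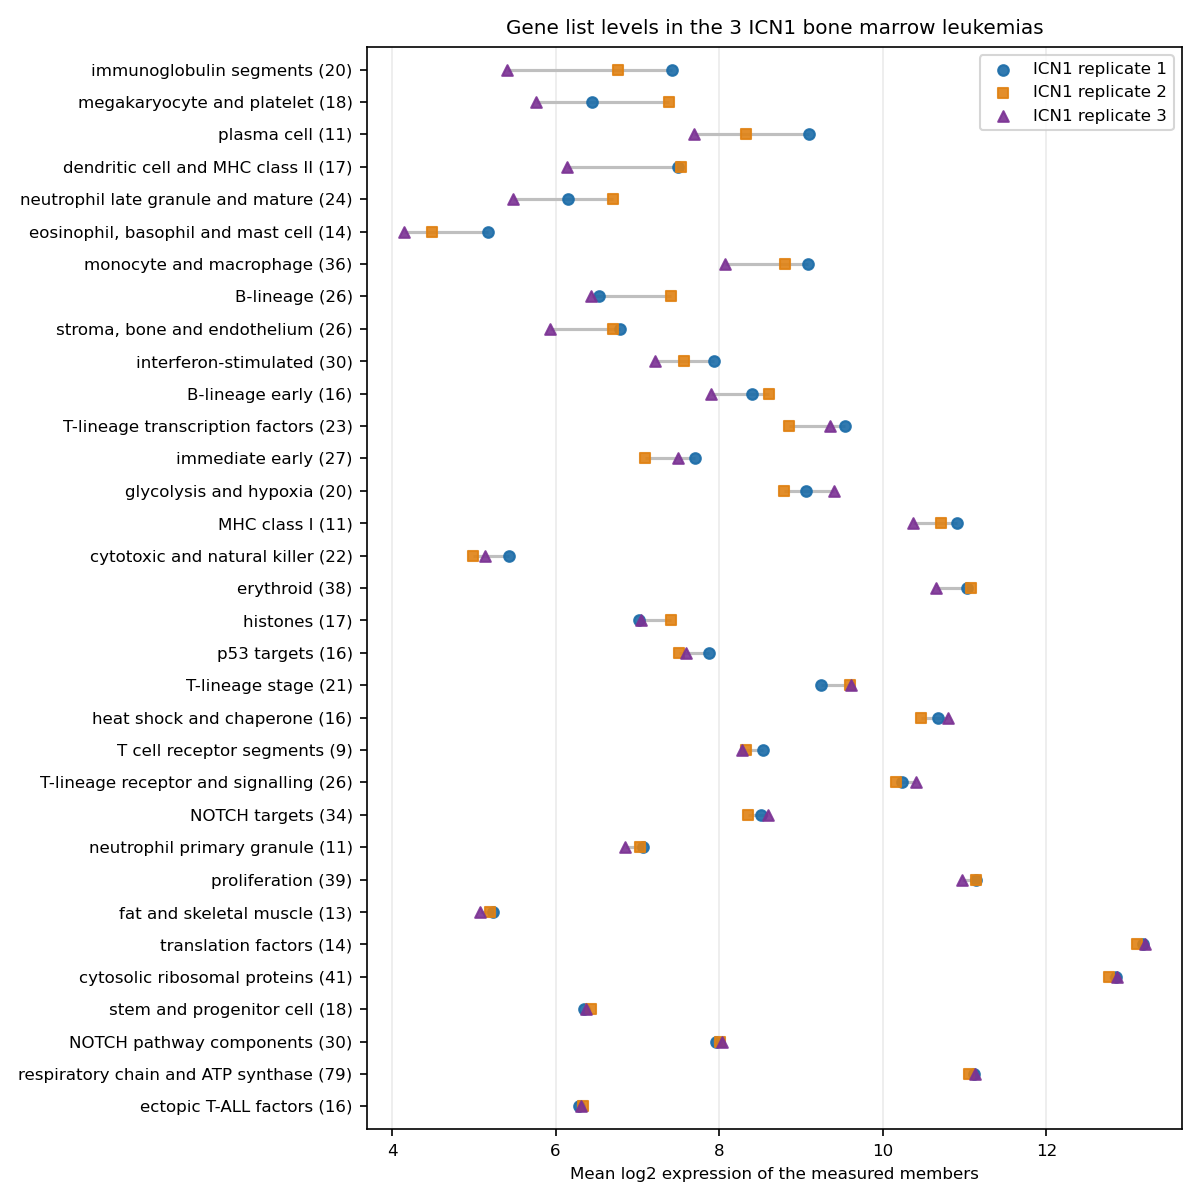
Mean log2 level of each gene list on the 3 ICN1 arrays, 1 point per array. Erythroid genes lie between 10.66 and 11.08, and immunoglobulin segments run from 7.43 to 5.40.

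Proliferation genes were bright and even. The 39 genes had a median range of 0.26, and Tyms alone had a range of at least 1 log2, at 8.26, 8.31 and 7.24. This is 2.56%, against 9.79% of all genes and 6.12% of those with a mean from 11 to 13. Mki67, the antigen Ki-67, read 13.40, 13.56 and 13.22, and Pcna 13.95, 13.84 and 13.84. Ribosomal protein genes had a median range of 0.10 over 41 genes, and 2 of them, Rpl27a and Rpl37, had a range of at least 1 log2, or 5 of 21 without probe sets marked as cross-hybridizing. Respiratory chain genes had a median range of 0.18 over 79, with 2 at or above 1 log2. In heat shock and chaperone genes 0 of 16 had a range of at least 1 log2, and replicate 2 was lowest in 13 of 16, against 36.7% of all genes. Hspa8, the constitutive chaperone, read 13.70, 13.29 and 13.82.

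Glycolysis and hypoxia genes were lowest in replicate 2 in 16 of 20, against 36.7% of all genes, and highest in replicate 3 in 15, against 40.7%. Their mean levels were 9.06, 8.79 and 9.40, and this order held under every setting tried. Pkm, pyruvate kinase, read 11.98, 11.71 and 12.81 and Aldoa, aldolase, 10.84, 10.56 and 11.68. Hk2, a hexokinase, read 8.22, 6.59 and 7.60. Ldha, lactate dehydrogenase, was even at 12.63, 12.63 and 12.74. Ankrd37, a gene switched on by low oxygen, read 6.32, 5.77 and 7.49.

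Immediate early genes respond within minutes to handling as well as to signals. A range of at least 1 log2 was found in 13 of 27 of them (48.1%), against 9.79% of all genes. Replicate 2 was the lowest array in 17 of 27, against 36.7% of all genes. Egr1 read 10.59, 8.28 and 10.82 and Fos, an AP-1 subunit, 7.10, 5.42 and 6.83, both lowest in replicate 2. Jun, its partner, read 7.86, 5.28 and 5.06, highest in replicate 1. How long each marrow was handled is not given in the labels.

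Interferon-stimulated genes were highest in replicate 1 by mean level, at 7.94, 7.57 and 7.22. Of 30, 8 had a range of at least 1 log2 (26.7%), against 9.79% of all genes. Oas1a, an antiviral synthetase, read 9.26, 6.98 and 7.05 and Gbp2, a guanylate-binding protein, 8.74, 7.40 and 6.31. Rsad2, an antiviral enzyme, read 13.57, 13.89 and 12.41, bright in all arrays. Of 11 MHC class I genes, 3 had a range of at least 1 log2 (27.3%), against 9.79% of all genes. Without probe sets marked as cross-hybridizing it was 1 gene of 7. Nlrc5, which switches class I genes on, read 7.98, 6.37 and 6.04, H2-K1, a class I heavy chain, 13.02, 12.09 and 11.81 and Tap2, a peptide transporter, 9.76, 10.87 and 9.54.

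In the 16 factors that can be switched on out of place in T cell leukemias, the median range was 0.21. Mef2c alone had a range of at least 1 log2, at 6.15, 6.89 and 5.54. With the arrays set level on the CD3 genes 3 of 16 did. The first share is 6.25%, against 9.79% of all genes, 2.48% of those with a mean under 5 and 17.2% from 5 to 7. Most of these factors were dim, and 4 of 16 had a mean of at least 7. Lmo2, a LIM protein of stem and red cell precursors, read 11.45, 11.47 and 11.13. In the 18 stem and progenitor genes 3 had a range of at least 1 log2 (16.7%). The share was 9.79% of all genes and 17.2% of those with a mean from 5 to 7. The 3 were Mycn, given above, Slamf1 at 7.41, 8.13 and 6.41 and Cd34 at 3.96, 4.63 and 3.50. Of 16 p53 targets, 4 had such a range (25%), against 9.79% of all genes and 14.6% of genes with a mean from 7 to 9. Pmaip1, which encodes the death protein NOXA, had the largest range at 8.81, 5.25 and 7.06.

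**Figure D5:**
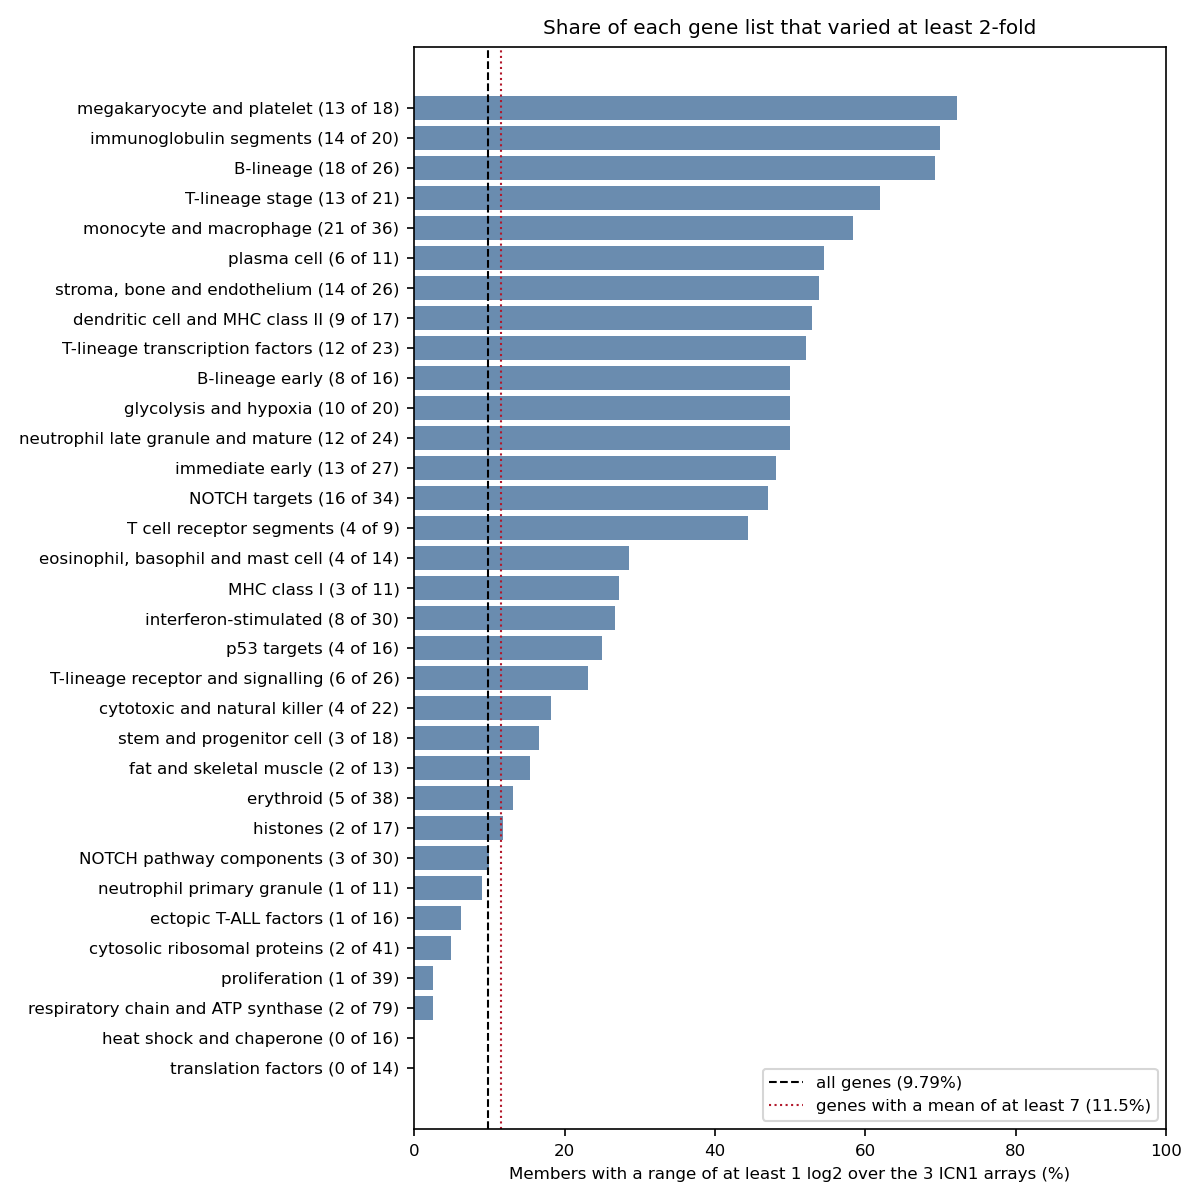
Share of the genes of each list with a range of at least 1 log2 over the 3 ICN1 arrays, in percent, 1 bar per list, with lines at the share over all genes, 9.79%, and over genes with a mean of at least 7, 11.5%. Megakaryocyte and immunoglobulin genes lie far to the right of both lines, and proliferation and ribosomal genes to the left.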

How the data were processed

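RNA of 7 leukemic suspensions was measured on Affymetrix arrays. The authors deposited 1 table of log2 values, 1 per probe set on each array, made with RMA according to the submitters' processing notes; the sources used here do not give its version. RMA draws arrays toward 1 distribution and compresses folds of dim probe sets. Of 45037 probe sets, 34945 carried 1 gene symbol, 932 several and 9160 none; 34741 matched RefSeq (GRCm38.p6), which gave names and chromosomes. Arrays hold no counts of depth; their number, 3, limits the precision. Ranges, SD and lists were computed with python 3.11.15, pandas 2.3.3 and numpy 2.4.6, and the script was tested on simulated data. Members and lists were chosen with earlier results of these data known. Named genes were the 30 highest means, the 30 largest ranges, the 20 smallest ranges with a mean of at least 10, and per list the 4 (other lists 2) brightest, most and least varying, with members of counts of 5 or fewer. Aldoa, C1qa, Cd34, Cd4, Cd79a, Ciita, Csf1r, Cxcl12, Ebf1, Fos, Gata3, H2-Ab1, H2-K1, Hes1, Hes5, Heyl, Igf1r, Ikzf2, Il2ra, Il7r, Itga4, Kel, Myc, Prf1, Rhd and Sparc were named after their values were seen. Alternatives changed the probe set, scaling, filter and arrays. No batch information was used here.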

Additional observations from a re-analysis of the deposited data

How the results depend on the processing

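The 1719 genes with a range of at least 1 log2 became 891 when genes with a mean under 7 were left out, 432 at a range of at least 2 log2 and 4160 when all probe sets were counted singly. The 914 genes with 1 array at least 1 log2 from both others became 458 without dim genes, and this count cannot be had from 2 arrays. The 244 second probe sets that kept the order became 160 at a minimum mean of 8 and 369 at 6. Setting arrays level on Cd3d, Cd3e, Cd3g and Cd247 moved the range of the mean level to 0.14 for erythroid, 0.10 for neutrophil primary granule, 0.53 for T-lineage receptor, 0.65 for T-lineage stage, 0.53 for NOTCH target and 0.37 for NOTCH component genes; for the last it was 0.14 with arrays centred on their medians, 0.14 with ribosomal protein genes and 0.15 without dim genes. Without dim genes it was 0.53 for neutrophil primary granule, 2.49 for late granule, 0.42 for T cell receptor and 3.12 for immunoglobulin segment genes, and the median ranges of the last 3 were 2.40, 1.29 and 3.57. Leaving out 1 array gave 716 to 1086 genes. It gave ranges of the mean level of 0.056 to 0.43 (erythroid), 0.28 to 1.02 (monocyte and macrophage), 0.55 to 1.22 (neutrophil late granule and mature), 0.039 to 0.22 (neutrophil primary granule), 0.34 to 1.03 (eosinophil, basophil and mast cell), 0.21 to 0.71 (B-lineage early), 0.10 to 0.98 (B-lineage), 0.64 to 1.40 (plasma cell), 0.67 to 2.02 (immunoglobulin segments), 0.068 to 0.25 (T-lineage receptor and signalling), 0.19 to 0.69 (T-lineage transcription factors), 0.011 to 0.36 (T-lineage stage), 0.039 to 0.26 (T cell receptor segments), 0.081 to 0.24 (NOTCH targets), 0.028 to 0.080 (NOTCH pathway components). Median ranges were 0.20 to 0.45 (erythroid), 0.38 to 1.08 (monocyte and macrophage), 0.46 to 0.91 (neutrophil late granule and mature), 0.26 to 0.46 (neutrophil primary granule), 0.24 to 0.44 (eosinophil, basophil and mast cell), 0.25 to 0.69 (B-lineage early), 0.46 to 1.20 (B-lineage), 0.45 to 0.84 (plasma cell), 0.78 to 1.46 (immunoglobulin segments), 0.29 to 0.40 (T-lineage receptor and signalling), 0.40 to 0.48 (T-lineage transcription factors), 0.44 to 0.93 (T-lineage stage), 0.14 to 0.51 (T cell receptor segments), 0.46 to 0.60 (NOTCH targets), 0.21 to 0.26 (NOTCH pathway components). Centring on ribosomal protein genes, quantile normalization of the 3 arrays, averaging the probe sets of each gene, the brightest probe set over all 7 arrays and leaving out cross-hybridizing probe sets left the counts over all genes within 1.5 times and, apart from the values just given, moved the ranges of the mean level and median ranges of the 15 lists named by less than 1 SD between replicates. List counts of genes with a range of at least 1 log2 did move. With probe sets averaged, stromal genes went from 14 to 5 of 26. Without cross-hybridizing probe sets, MHC class II genes went from 9 to 5 of 13, immunoglobulin segments from 14 to 9 of 17, T cell receptor segments from 4 to 1 of 7, MHC class I genes from 3 to 1 of 7, cytotoxic genes from 4 to 2 of 19 and ribosomal proteins from 2 to 5 of 21. With CD3 centring erythroid genes went from 5 to 3 of 38, and ectopic T-ALL factors from 1 to 3 of 16. Leaving out dim genes shortened the lists, to 6 of 9 for B-lineage, 4 of 8 for early B-lineage, 6 of 7 for megakaryocyte, 7 of 7 for late neutrophil, 8 of 8 for immunoglobulin segment, 8 of 11 for stromal, 5 of 18 for interferon-stimulated, 5 of 13 for immediate early, 2 of 10 for p53 target and 1 of 1 for cytotoxic genes. With all 3 arrays kept, the other list counts that moved by over 1.5 times had 2 or fewer such genes in both settings. Leaving out 1 array moved list counts further. Without replicate 3, macrophage genes went from 21 to 3 and MHC class II genes from 9 to 0. Without replicate 2, B-lineage genes went from 18 to 6 and megakaryocyte genes from 13 to 4. Without replicate 1, these 4 lists held 11, 8, 14 and 13 such genes in the same order. The ranges of the named genes, the values of the other lists and the counts of genes high or low in 1 array were checked together. CD3 centring moved 85 of these values and left 211, and quantile normalization moved 17 and left 279. A move was at least 1 SD, or over 1.5 times for a count. The values were on a log2 scale as deposited, so the offset planned for untransformed values was not run. No paired analysis was possible because 1 group is described and the labels give no replicate numbers. The 3 arrays limit every SD, and folds of dim probe sets are compressed.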

Other observations

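Further genes, chosen after their values were seen, add to the picture of the 3 marrows. All but Myb, with a range of 0.76, had a range of at least 1 log2. Vim, vimentin of the cytoskeleton of mobile cells, read 10.53, 9.69 and 13.50, highest in replicate 3. Ahi1, a cilium gene near Myb in the mouse genome, read 8.54, 8.10 and 11.66, also highest in replicate 3. Myb, a factor of blood progenitors, read 12.72, 12.43 and 13.19, and its other probe sets 11.34, 11.03 and 12.50 and 10.26, 9.77 and 11.85, all highest in replicate 3. Ccnd1, a cyclin of the G1 phase, read 9.76, 6.10 and 5.34, highest in replicate 1. Gimap4, a GTPase of lymphocyte survival, read 12.23, 8.06 and 10.61, lowest in replicate 2.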
